A study of Mus musculus with 36 samples.

Results

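The genes described here are the nuclear genes of oxidative phosphorylation, taken by their names: entries beginning Nduf followed by a, b, c, s or v, entries beginning Uqcr or Atp5, and Cox entries of subunits 5 to 8. Of 23847 gene entries per library, 86 matched, and 84 of these reached 1 FPKM in 3 or more libraries. FPKM counts sequenced fragments relative to transcript length and library depth. Of the 84, 80 reached 1 FPKM in every library; Ndufa4l2 and Cox7a1 did so in 31, Cox6a2 in 5 and Cox8b in 4. Cox6a2 and Cox8b therefore stood just inside the limit, and Cox7b2 and Cox8c stood outside it, with highest values of 0.394 and 0.240 FPKM. The names also take in 7 assembly factors of complex I (Ndufaf1 to Ndufaf7) and 2 genes, Atp5s and Atp5sl, that are not subunits of the ATP synthase; they miss complex II and both forms of subunit 4 of complex IV, Cox4i1 and Cox4i2, which are given beside the members. The subunits encoded in mitochondrial DNA were not analysed here. The set was proposed because of its levels in these same libraries, so the comparisons below describe it and do not test it as a set.

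RNA was measured in gut dissected from mouse embryos of the C57BL/6J strain at 3 embryonic stages named by days of gestation, E10.5, E12.5 and E14.5. At each stage there were wild-type females, wild-type males, females labelled Ret null and males labelled Ret null, with 3 libraries in each of the 12 groups and 36 in all. Ret encodes the receptor that enteric nervous system precursors need to settle the gut. The labels give no allele, and do not say whether a library came from 1 embryo or from pooled guts, so p-values take in only how far these samples differ from each other, part of which may be technical.

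Oxidative phosphorylation passes electrons from NADH and succinate through complexes I, II, III and IV of the inner mitochondrial membrane to oxygen and uses the proton gradient so made to drive the ATP synthase. Each complex joins catalytic core subunits with accessory subunits that stabilise it, and assembly factors help to build complex I without staying in it. Several subunits of complex IV, and the NDUFA4 subunit, exist as alternative forms encoded by separate genes, some of them typical of heart and skeletal muscle.

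Facts of the libraries bear on what follows. Ret RNA, which checks the labels, was at 2.11 to 13.3 FPKM in wild type, at 0.0111 to 0.0587 FPKM in 11 of 18 Ret null libraries, and at 4.74 to 6.49 FPKM in the other 7: all 3 females of E10.5, male 2 of E12.5, and females 1 and 3 and male 1 of E14.5. Sex-linked genes went against the label, wholly or in part, in 4 libraries. In female 3 and male 1 of E10.5 labelled Ret null they were those of the other sex. E12.5 wild-type females 1 and 2 held both Xist (49.1 and 52.2 FPKM) and the Y-linked Ddx3y (4.91 and 4.98 FPKM). In 4 pairs of libraries of a group the values differed by 0.906 to 1.09 times the counting noise, and at most 1% of genes lay beyond 3 SD. The mean of such a pair served as a single sample, and 32 samples remained. E14.5 males 2 and 3 labelled Ret null differed by 1.05 times the noise. They stayed separate samples because 1.6% of genes lay beyond 3 SD. Read from the widths of the intervals the authors deposited, library depth was 4.88 to 41.0 M fragments, with the 5 shallowest libraries all from E14.5 wild type, so depth went with stage. In the E10.5 females labelled Ret null, the members' FPKM equalled the centre of the authors' interval (median ratio 1), while in all other libraries FPKM lay above that centre, by up to a ratio of 1.31. Single wild-type libraries of E14.5 stood out for RNA of other tissues. In male 2, 7 heart and striated muscle markers summed to 2083 FPKM, against 19.0 to 157 FPKM in the other 11 libraries of the stage. Red cell genes summed to 29291 FPKM in male 1, and liver genes to 2544 FPKM in female 1. Such RNA was not limited to that group. In E12.5 female 3 labelled Ret null, red cell genes summed to 10078 FPKM and liver genes to 834 FPKM, and in female 2 liver genes summed to 893 FPKM.

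The members were abundant, with a median over genes of 83.9 FPKM (means over samples), and most varied little. The typical standard deviation within a stage and genotype label, with the sexes pooled, was 0.158 on the log2(FPKM + 1) scale used for all tests below. FPKM is per length, so levels can be set side by side between genes, with the limit that most members are short: the transcripts run from 321.5 to 3632 bases with a median of 737, and 56 are under 1000 bases, where FPKM depends most on how fragment length was treated. Processed pseudogenes of many members exist, and no source used here says how reads shared with them were assigned.

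The catalytic and membrane parts of the ATP synthase stood highest. In F1, the soluble head that makes ATP, mean levels ran from 137 FPKM for Atp5d, the delta subunit, to 330 FPKM for Atp5a1 and 484 FPKM for Atp5b, the catalytic beta subunit. In Fo and the stalk, Atp5g2 and Atp5g3, genes for the c subunit of the proton-carrying ring, averaged 446 and 363 FPKM, and Atp5f1 was lowest at 113 FPKM. Complex IV spanned the widest range, from Cox8a at 320 FPKM and Cox7c at 263 FPKM down to Cox8b at 0.687 FPKM. Complex III lay between 63.6 FPKM for Uqcrfs1, the Rieske iron-sulphur protein, and 236 FPKM for Uqcrh, the hinge protein beside cytochrome c1, with Uqcr10 at 149 FPKM.

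Complex I genes were lower per length. Among its 7 core subunits Ndufs1 was lowest at 32.6 FPKM and Ndufs3 was at 66.6 FPKM, and the 29 accessory subunits ran from 11.2 FPKM for Ndufa11 to 117 FPKM for Ndufa3 and 122 FPKM for Ndufa2. The assembly factors were lower again, with a median of 7.11 FPKM; Ndufaf2, at 33.1 FPKM, was well above Ndufaf1, at 9.65 FPKM, and Ndufaf5, at 3.87 FPKM, was lowest. Atp5sl and Atp5s were at 8.65 and 4.51 FPKM. Ndufa4l2, a form of NDUFA4 known for its induction at low oxygen, varied most of any member within a stage and genotype label. Its standard deviation, with the sexes pooled, was 0.95 on the log2 scale.

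Promoters were examined because the members are known targets of shared transcription factors. RefSeq promoter windows (build GRCm38.p6, 250 bases before to 50 after each start) matched 72 of the 84 members. The letters GCGCANGCG, resembling the site of NRF1, an activator of respiratory chain genes, occurred on either strand in 20 of the 72 (27.8%), against 1901 of all 27025 genes with a window (7.03%). The letters CCGGAAGT, resembling sites of ETS factors such as GABP, occurred in 5 (6.94%, against 4.31% of all genes), and AAGATGGCG, resembling the YY1 site, in 8 (11.1%, against 1.64%). At least 1 of these 3 occurred in 30 members (41.7%, against 11.9% of all genes). Each motif was counted on its own, and overlapping matches of a motif were kept. The NRF1-like letters were found in 8 of the 28 matched members that rose from E12.5 to E14.5 in wild type (28.6%) and in 12 of the 44 that did not (27.3%). The ETS-like letters were in 3 of the 28 (10.7%) and 2 of the 44 (4.55%), and the YY1-like letters in 2 (7.14%) and 6 (13.6%). A match is a description of letters, not a shown binding site.

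The stretches below are the 100 bases before the start of 5 members, all on the minus strand, 5′ to 3′. These 5 were picked because they carry a match. Cox8a, Cox6b1, Cox6a1 and Ndufa6, named below by size of change, held 0 matches in their 100 bases. A second window of Ndufa5 also held 0. Uqcr11 (chr10:80406822-80406921) and Uqcrh (chr4:116075071-116075170), complex III genes that moved with stage and with the label, carry the ETS-like letters. Atp5k (chr5:108434400-108434499), Ndufs6 (chr13:73328483-73328582) and Ndufa5 (chr6:24527691-24527790), genes low in E14.5 libraries labelled Ret null, carry the NRF1-like letters. Capitals mark the match, which in Uqcrh and Ndufs6 lies on the opposite strand and in Atp5k is a pair of overlapping matches.
Uqcr11: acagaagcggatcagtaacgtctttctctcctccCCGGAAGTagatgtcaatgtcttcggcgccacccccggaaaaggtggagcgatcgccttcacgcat
Uqcrh: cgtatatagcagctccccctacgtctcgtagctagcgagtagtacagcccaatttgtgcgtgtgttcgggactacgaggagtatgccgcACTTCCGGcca
Atp5k: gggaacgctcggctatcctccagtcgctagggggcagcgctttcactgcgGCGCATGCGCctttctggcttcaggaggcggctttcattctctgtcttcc
Ndufs6: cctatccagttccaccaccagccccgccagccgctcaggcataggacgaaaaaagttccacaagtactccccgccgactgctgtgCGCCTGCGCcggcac
Ndufa5: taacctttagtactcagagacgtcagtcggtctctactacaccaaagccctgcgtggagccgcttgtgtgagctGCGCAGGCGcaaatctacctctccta

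Before E14.5 no member passed the test between the genotype labels with near-identical libraries averaged. At E10.5, 0 of 82 tested members passed limma's test in either direction (adjusted p under 0.05 over all genes; 12 at an unadjusted p under 0.05), where 8.29% of all genes did. The lowest adjusted p was 0.0799, for Ndufa4, a subunit now assigned to complex IV, which lay at 211 to 233 FPKM in libraries labelled Ret null and 208 to 292 FPKM in wild type; the ranges overlapped. At E12.5 the count was again 0 of 82 (2 at an unadjusted p under 0.05), where 0.00759% of all genes, a single gene, passed. The members' median log2 difference was -0.05 at E10.5 and -0.02 at E12.5. Without the E10.5 females labelled Ret null, whose values differ in form and which hold Ret, the median at E10.5 was 0.07 and the count stayed at 0. That fit compares males only. Counting every library as a sample gave 12 calls at E10.5, 2 higher and 10 lower, and leaving out female 3 labelled Ret null gave 2, both lower.

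From E10.5 to E12.5 few members were called. In wild type 0 of 84 members passed (10 at an unadjusted p under 0.05), against 4.57% of all genes, and the median log2 difference was 0.09. In libraries labelled Ret null 3 members rose and 0 fell, where 0.88% of all genes rose and 2.48% fell. These were Cox6c, a complex IV subunit (0.33, SE 0.09, adjusted p = 0.0483), Atp5c1, the gamma subunit that turns within F1 (0.27, SE 0.07, adjusted p = 0.0332), and Ndufv2, an iron-sulphur subunit of complex I (0.25, SE 0.07, adjusted p = 0.0442). Atp5c1 was at 116 to 140 FPKM in the E10.5 libraries, all of them below the 143 to 171 FPKM of E12.5. The median log2 difference of the members was 0.13 there. Their mean log2(FPKM + 1) was 5.85 to 5.99 in E10.5 libraries labelled Ret null, all below the 6.01 to 6.13 of E12.5, while in wild type it was 5.86 to 6.06 and 6.02 to 6.08, with overlap. All 3 calls were lost without the E10.5 females labelled Ret null, and the count also fell to 0 without any 1 of E10.5 females 1 and 2 (averaged), E10.5 male 1 or 2, or E12.5 female 2, male 2 or 3, and to 1 without E10.5 male 3. Leaving out the E10.5 females labelled Ret null makes that comparison one of males only. The difference between genotype labels in this change was called for 0 of 84 members (0 at an unadjusted p under 0.05), against 1.34% of all genes.

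Between E12.5 and E14.5 most members shifted up by a small amount in FPKM in wild-type gut. Of 84 members 35 rose and 1, Ndufaf2, fell, where 31% of all genes tested rose and 27.9% fell; the members' share of rising genes was thus 41.7%, not far above that of all genes. The median log2 difference was 0.17, against 0.02 over all genes, and 73 members were above 0. Of 35 risen members, 33 remained, of 82 tested, when Cox6a2 and Cox8b were set aside, with a median of 0.17. These 2 had passed the filter only through libraries in which they were high. In bulk tissue, more RNA of a gene per cell and more cells that hold it cannot be told apart.

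Summed over the 84 members, the level was 9158 to 9793 FPKM (median 9472) in E12.5 wild type and 8893 to 12666 FPKM (median 11374) at E14.5. Male 1, the library richest in red cell genes, was lowest, below every E12.5 wild-type library, and male 2, the library with heart markers, was highest. The other 4 E14.5 wild-type libraries lay above all libraries of E12.5. As a share of all FPKM the members made up 2.14 to 2.21% in E12.5 wild type and 1.87 to 2.68% in E14.5 wild type.

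**Figure D1:**
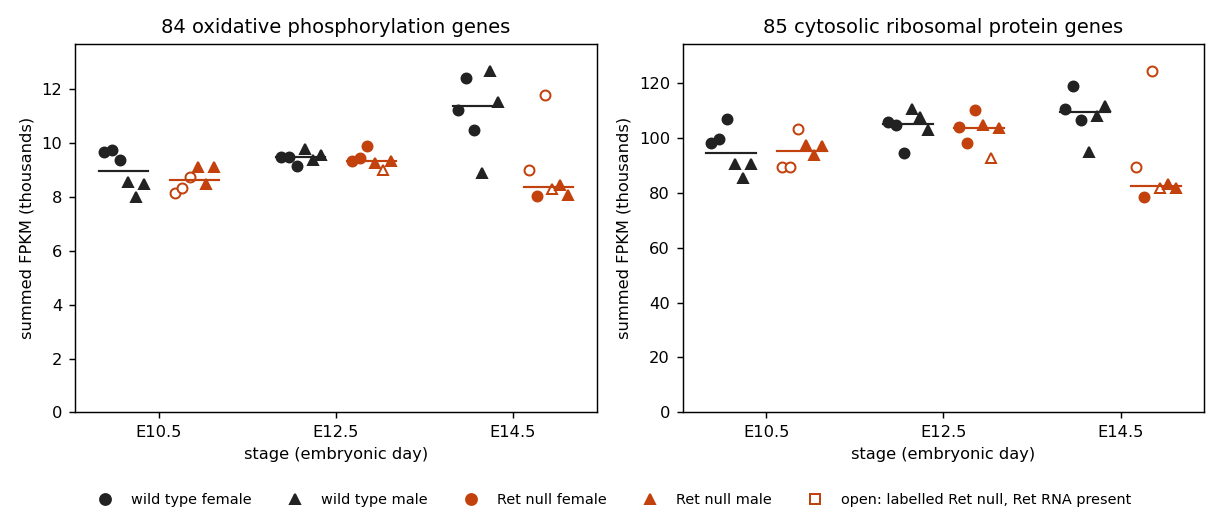
Summed FPKM (axis scaled as labelled) by stage, genotype label and sex, 1 point per library, for the 84 members (left) and, for reference, 85 cytosolic ribosomal protein genes (right); lines are medians over 6 libraries and open symbols are libraries labelled Ret null that hold Ret RNA. At E14.5 the members sum to 8893 to 12666 FPKM in wild type and 8049 to 11787 FPKM in libraries labelled Ret null, with wild-type male 1 low and female 3 labelled Ret null high.

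By complex, the calls were as follows, where 31% of all genes rose and 27.9% fell. In complex III 7 of 8 members rose, the exception being Uqcrb. Uqcr11 (gene at chr10:80402997-80406821, mm10), the smallest complex III subunit, went from 99.2 to 113 FPKM (median 104) at E12.5 to 123 to 202 FPKM (median 174) at E14.5, without overlap, a log2 difference of 0.68 (SE 0.12, adjusted p = 4.8e-05). In complex IV 5 of 12 members rose, Cox6a1, Cox8a, Cox6b1, Cox5b and Cox7a1, with Cox6a2 and Cox8b set aside. Cox6a1 (chr5:115345654-115348955), the form of subunit 6a found in most tissues, had the lowest adjusted p of the members, going from 172 to 202 FPKM (median 190) to 269 to 413 FPKM (median 363), again without overlap (0.89, SE 0.11, adjusted p = 4.73e-07). Cox8a (chr19:7215158-7217616), the ubiquitous form of subunit 8, went from a median of 291 FPKM to 447 FPKM (0.63, SE 0.11, adjusted p = 3.23e-05).

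In complex I 3 of 7 core subunits rose, Ndufs7 and Ndufv1 among them, and 11 of 29 accessory subunits, with 0 falling in either group. Ndufs7, which holds the iron-sulphur cluster that hands electrons to ubiquinone, went from 52.1 to 60.2 FPKM to 75.5 to 102 FPKM (0.55, SE 0.08, adjusted p = 5.01e-06), without overlap. Of 7 assembly factors none rose and 1 fell, where 27.9% of all genes fell. It was Ndufaf2, a chaperone of late complex I assembly. Its level went from 31.2 to 42.3 FPKM to 22.3 to 34.9 FPKM (-0.33, SE 0.09, adjusted p = 0.0041), with some overlap. In the ATP synthase 3 of 5 F1 members rose, Atp5d, Atp5b and Atp5a1, and 3 of 10 of Fo and the stalk, Atp5g1, Atp5l and Atp5g3. In Fo and the stalk, complex IV and the accessory subunits of complex I the rising share was not far from the 31% of all genes. Atp5b went from 453 to 483 FPKM to 489 to 664 FPKM (0.29, SE 0.06, adjusted p = 0.000379). Beside the members, Cox4i1 rose by 0.35 (SE 0.09, adjusted p = 0.00205).

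Scaling changed the balance of these calls. Over 21 alternatives the members' median ran from 0.05 to 0.25. With quantile normalization 31 members rose and 7 fell, with the all-gene median at -0.09 in place of 0.02; after shifting libraries to a common median 26 rose and 5 fell; and with every library scaled to one total FPKM, chosen after seeing the data, 23 rose and 10 fell. Assembly factors and Atp5sl made up 5 of the 7 that fell under quantile normalization and all 5 under the median shift.

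Genes of related pathways, from lists drawn up with earlier results of these data known, moved as follows in the same wild-type comparison. Of 17 tricarboxylic acid cycle genes 13 rose and 0 fell (median 0.27), with Pdha1, of pyruvate dehydrogenase, at 0.47. Of 4 complex II genes 3 rose, Sdhd, Sdhc and Sdha. Of 15 glycolysis genes 12 rose and 1, Hk2, fell (median 0.80), led by Pfkp, a phosphofructokinase, at 1.93 and Aldoc, an aldolase, at 1.24. A further listed gene, tested within E14.5, was left out of fits over all stages for lack of an OK status in every library. The list summed to 2359 FPKM in E12.5 wild-type female 1 and 9875 FPKM in the near-identical female 2. Of 7 antioxidant and uncoupling genes 6 rose (median 0.40). Among 14 regulators of mitochondrial biogenesis 4 rose, with Esrra, an orphan nuclear receptor that drives respiratory genes, at 1.29, and 7 fell, with Nrf1 at -0.33. Cytosolic ribosomal protein genes were nearly level, with 6 of 82 rising, 5 falling and a median of 0.04, and of 76 mitochondrial ribosomal protein genes 16 rose and 10 fell (median 0.00). All genes with transcripts under 1000 bases had a median of 0.12.

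Cell makeup moved with the stage as well. All 5 smooth muscle markers and all 5 epithelial markers rose in wild type, and their sums went from 201 to 915 FPKM to 725 to 1429 FPKM for smooth muscle and from 139 to 207 FPKM to 348 to 634 FPKM for epithelium. Both lists also rose by 5 of 5 in libraries labelled Ret null, where 1 member rose. Their part in the members' change was not tested.

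In libraries labelled Ret null the same interval showed no general rise. Of 84 members 1 rose and 11 fell, where 23.2% of all genes rose and 11.8% fell, and the median was -0.07 against 0.04 over all genes. Cox6a1 rose by 0.29 (SE 0.10, adjusted p = 0.0353), a call lost in 11 of 22 alternatives. Of the 11 that fell, 6 were accessory subunits of complex I, led by Ndufa12, of the arm that reaches into the matrix: it went from 102 to 127 FPKM to 62.2 to 105 FPKM (-0.57, SE 0.09, adjusted p = 5.12e-05). Ndufa5 (-0.39, adjusted p = 0.0154), Ndufs6 (-0.28, adjusted p = 0.039) and Ndufb3 (-0.26, adjusted p = 0.00774) were among them. Ndufaf2 fell here as in wild type (-0.38, SE 0.09, adjusted p = 0.00203), and Cox7b of complex IV fell by 0.34 (SE 0.08, adjusted p = 0.00234). For these genes female 3 of E14.5 was the highest library of its group: Ndufa12 stood at 105 FPKM there against a median of 72.6 FPKM.

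Leaving out that library gave 28 falling members and 0 rising, and leaving out female 2 or male 1 of E14.5 gave 7 calls in place of 12. Without the libraries labelled Ret null that hold Ret, 25 fell and 0 rose. Quantile normalization gave 5 rising and 16 falling. Cytosolic ribosomal protein genes fell in the same comparison, 38 of 82 with a median of -0.21, while 8 of 15 glycolysis genes and 4 of 17 tricarboxylic acid cycle genes rose.

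**Figure D2:**
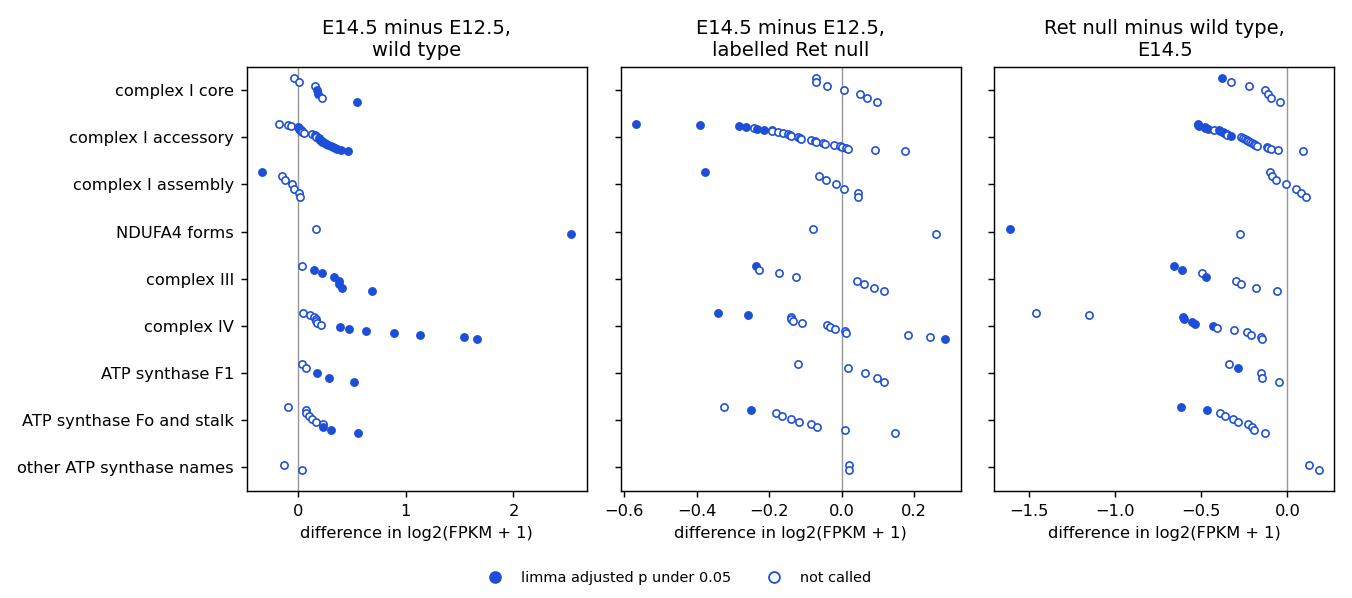
Difference in log2(FPKM + 1) for each member, grouped by its role, for E14.5 minus E12.5 in wild type, the same in libraries labelled Ret null, and Ret null minus wild type at E14.5; filled points passed limma's adjusted p of 0.05, including Cox6a2 and Cox8b, which passed the filter only through libraries in which they were high, and each panel has its own axis range. Complex III and IV points lie to the right of 0 in wild type, and 77 of 83 points lie to the left of 0 in the genotype comparison.

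At E14.5 the libraries labelled Ret null held less RNA of the respiratory chain than wild type. Of 83 tested members 23 were lower and 0 higher, where 4.84% of all genes were lower and 10.9% higher. The members' median log2 difference was -0.27 against 0.04 over all genes, and 77 of 83 were below 0. Cox6a2, one of the 83, passed the filter only through libraries in which it was high, and was not called. Without it 23 of 82 were lower and the median was -0.26. The members' sum overlapped between the labels. It was 8049 to 11787 FPKM (median 8369) in libraries labelled Ret null and 8893 to 12666 FPKM (median 11374) in wild type. Female 3 labelled Ret null was high and wild-type male 1 was low. The other 5 libraries labelled Ret null, at most 9016 FPKM, lay below the other 5 wild-type libraries. Total FPKM of all genes was 404022 to 497295 under the Ret null label, at most 421851 without female 3, and 448521 to 491231 in wild type. As a share of that total the members made up 1.99 to 2.37% under the Ret null label and 1.87 to 2.68% in wild type. Leaving out female 3 and wild-type male 1, the shares were at most 2.14% against at least 2.29%.

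By role, 5 of 13 tested complex IV members were lower, with Cox6a2 among the 13 but not called. So were 3 of 8 of complex III, and 10 of 29 accessory and 1 of 7 core subunits of complex I. In the ATP synthase 1 of 5 of F1 and 2 of 10 of Fo and the stalk were lower. None of the 7 assembly factors was called, with a median of -0.01, nor was Atp5s or Atp5sl. Uqcr11 lay at 90.2 to 164 FPKM (median 98.9) in libraries labelled Ret null and 123 to 202 FPKM (median 174) in wild type, a log2 difference of -0.66 (SE 0.15, adjusted p = 0.0211). The groups overlapped only through female 3 labelled Ret null. Uqcrq, also known as a ubiquinone-binding protein of complex III, was at 70.8 to 136 FPKM (median 79.5) against 90.6 to 154 FPKM (median 141), or -0.61 (SE 0.17, adjusted p = 0.0344).

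In complex IV, Cox8a was at 228 to 403 FPKM (median 278) against 343 to 513 FPKM (median 447), a difference of -0.61 (SE 0.14, adjusted p = 0.0197). Cox6b1 (chr7:30616974-30626151), which faces the intermembrane space and joins paired complexes, was at 172 to 303 FPKM (median 197) against 246 to 351 FPKM (median 331), or -0.60 (SE 0.13, adjusted p = 0.0194). Cox7b and Cox7a2 were also lower, and Cox4i1 had a difference of -0.36 that missed the threshold (adjusted p = 0.0504). In the ATP synthase, Atp5k, the e subunit that helps pair the enzyme, was at 159 to 381 FPKM (median 204) against 246 to 437 FPKM (median 350), or -0.62 (SE 0.17, adjusted p = 0.0348), and Atp5b at 444 to 513 FPKM against 489 to 664 FPKM (-0.29, SE 0.08, adjusted p = 0.0422).

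The largest difference among the members belonged to Ndufa4l2 (chr10:127514939-127517156). It lay at 3.26 to 12.8 FPKM (median 4.39) in libraries labelled Ret null and 9.39 to 35.0 FPKM (median 16.6) in wild type, a log2 difference of -1.61 (SE 0.25, adjusted p = 0.00885). Wild-type male 1, low for most members and rich in red cell genes, held the highest value. Ndufa4 itself was at 208 to 338 FPKM against 224 to 342 FPKM and was not called.

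**Figure D3:**
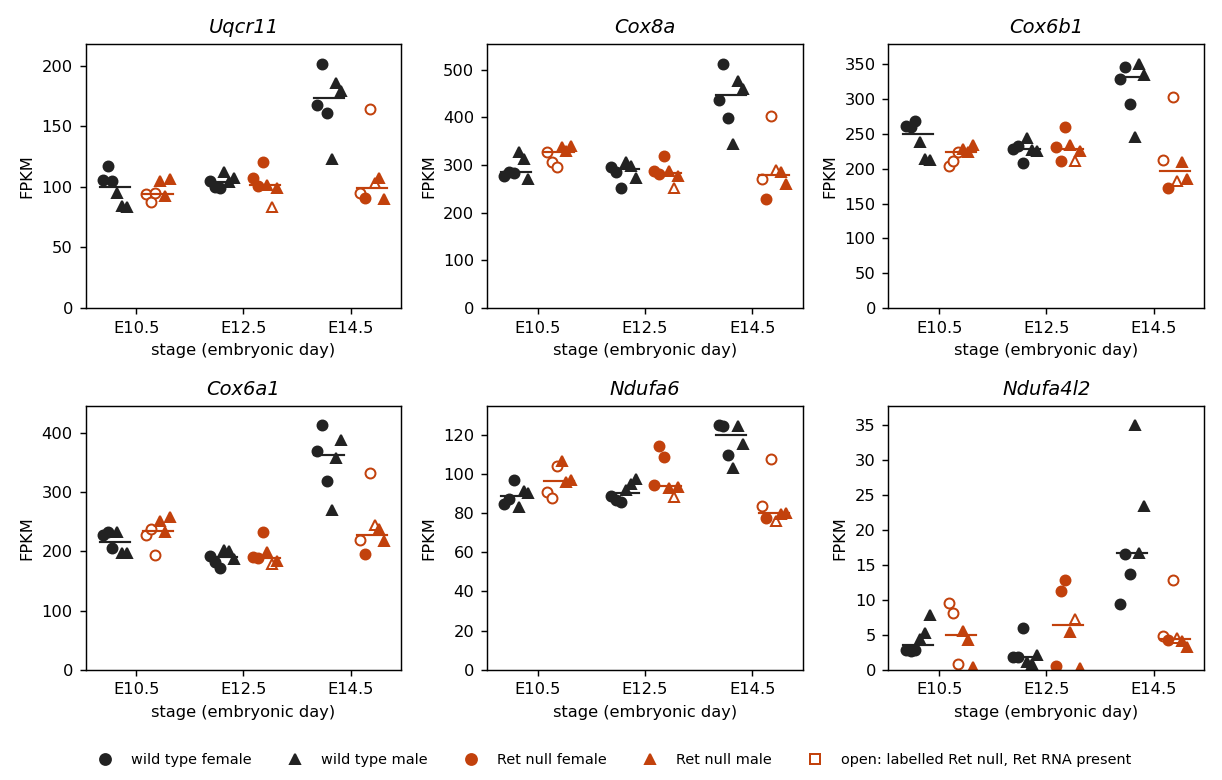
FPKM of Uqcr11, Cox8a, Cox6b1, Cox6a1, Ndufa6 and Ndufa4l2 by stage, genotype label and sex, 1 point per library, with medians over 6 libraries as lines and open symbols for libraries labelled Ret null that hold Ret RNA. Genotype labels overlap at E10.5 and E12.5; at E14.5 the Uqcr11 medians are 174 FPKM in wild type and 98.9 FPKM in libraries labelled Ret null.

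The number of genes called at E14.5 depended on single libraries, although 0 members were higher in each of these fits. Leaving out female 3 labelled Ret null gave 45, and leaving out wild-type male 1 gave 41. Leaving out another library labelled Ret null gave fewer: 4 without female 1, 6 without female 2, 9 without male 1, 8 without male 2 and 3 without male 3. It was 12, 8, 13 and 7 without wild-type female 1, female 2, male 2 and male 3. Without the 3 libraries labelled Ret null that hold Ret, 26 members were lower in 3 libraries against 6, with Uqcr11 at -0.82 (adjusted p = 0.0243), Cox8a at -0.80 and Ndufa4l2 at -1.91. Among the 3 libraries labelled Ret null that lack Ret, males 2 and 3 differed by little more than counting noise. With all libraries scaled to one total, the all-gene median was 0.20 and 18 members were lower and 4 higher. The 4, Atp5s, Atp5sl, Ndufaf1 and Ndufaf7, are not subunits. Over 22 alternatives the members' median ran from -0.37 to -0.10.

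Other genes were lower in the same comparison. Of 82 cytosolic ribosomal protein genes 19 were lower and 0 higher (median -0.26), and their sum was 78394 to 124268 FPKM (median 82443) in libraries labelled Ret null, highest in female 3, against 94931 to 118765 FPKM (median 109376). Genes with transcripts under 1000 bases had a median of -0.17, with 178 of 1113 lower and 20 higher, and genes of 2000 bases or more a median of 0.08; most members are short. Of 16 glycolysis genes 10 were lower (median -0.37), with Pfkp at -1.18, Hk1 at -0.56 and Aldoc at -0.54. Of 7 antioxidant and uncoupling genes 3 were lower (Gpx1, Gpx4 and Sod2), and of 76 mitochondrial ribosomal protein genes 3. The tricarboxylic acid cycle genes (0 of 17 called by limma, 6 at an unadjusted p under 0.05, median -0.15) and complex II genes (0 of 4, 3 at an unadjusted p under 0.05, median -0.20) were not called. Among regulators, Esrra was lower (-0.48, adjusted p = 0.0187) and Nrf1 and Gabpa higher (0.20 and 0.25).

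Markers of other cells differed too. Red cell genes were lower for 5 of 8 tested entries, summing to 2364 to 5923 FPKM in libraries labelled Ret null against 4312 to 29291 FPKM in wild type. Liver and macrophage markers were lower for 1 of 5 and 2 of 4. None of 5 smooth muscle, 5 epithelial, 4 endothelial, 5 enteric neuron and crest or 6 heart and striated muscle markers was called by limma (0, 0, 1, 1 and 4 at an unadjusted p under 0.05), although the enteric list had a median of -1.33 and the heart list -1.84. FPKM over the centre of the authors' interval, for the members, was 1.26 to 1.31 in libraries labelled Ret null and 1.21 to 1.23 in wild type, without overlap; with the interval centre in place of FPKM, chosen after seeing the data, 39 members were lower and 0 higher. The part of tissue makeup, transcript length and the ribosomal shift in the members' difference was not tested.

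The change from E12.5 to E14.5 differed between the genotype labels for 27 of 84 members, all of them lower in libraries labelled Ret null, where 6.19% of all genes were lower and 11.2% higher. This difference uses the same E14.5 libraries as the comparison above, so it is not separate evidence. The median over members was -0.27 against 0.02 over all genes. Without Cox6a2 and Cox8b, neither of which was called, 27 of 82 were lower and the median was -0.26. Ndufa6 (chr15:82350139-82354291), an accessory subunit of complex I with a LYR motif, moved in opposite directions: it rose from 85.7 to 97.3 FPKM to 103 to 125 FPKM in wild type (0.36, SE 0.07, adjusted p = 0.000153) and fell from 88.2 to 114 FPKM to 76.2 to 107 FPKM under the Ret null label (-0.23, SE 0.07, adjusted p = 0.00935). The difference between these changes was -0.59 (SE 0.10, adjusted p = 0.00169). For Cox8a it was -0.62 (SE 0.15, adjusted p = 0.00946), for Cox6b1 -0.62 (SE 0.14, adjusted p = 0.00827), for Uqcr11 -0.62 (SE 0.17, adjusted p = 0.0156), and for Cox6a1 -0.60 (SE 0.15, adjusted p = 0.0116).

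Ndufa4l2 had the largest such difference, -2.27 (SE 0.78), and the least certain, with an adjusted p of 0.0478: at E12.5 it already ran from 0.245 to 12.9 FPKM in libraries labelled Ret null. Without female 3 of E14.5 labelled Ret null or wild-type male 1 of E14.5 the count of 27 became 48 and 45. It was 12 without E12.5 wild-type female 3, 13 without E12.5 female 3, E14.5 female 1 or E14.5 female 2 labelled Ret null, 15 without E12.5 male 1 or E14.5 male 3 labelled Ret null or E14.5 wild-type female 2, and 17 without E12.5 wild-type females 1 and 2 or male 3. Scaled to one total, 13 were lower and 3 higher, with the all-gene median at 0.19.

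Forms typical of striated muscle were highest in 1 library. Cox6a2 (chr7:128205435-128206366), Cox7a1 (chr7:30184171-30186030) and Cox8b (chr7:140898942-140900446) are the heart and muscle forms of complex IV subunits 6a, 7a and 8. In wild-type male 2 of E14.5 they stood at 31.6, 27.0 and 16.5 FPKM, and in the other 35 libraries at no more than 3.12, 6.45 and 2.07 FPKM. The same library held 116 FPKM of Myh6, atrial myosin heavy chain, against at most 0.434 FPKM elsewhere, and 306 FPKM of Myl7, an atrial myosin light chain, against at most 11.3 FPKM, while Myog, a skeletal muscle factor, was at 0.344 FPKM. Of the 7 heart and striated muscle markers, 6 were higher there than in any other library.

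Cox7a1 was present at low level in most libraries. It went from 1.05 to 1.86 FPKM at E12.5 to 2.71 to 27.0 FPKM (median 4.34) at E14.5 in wild type, a log2 difference of 1.54 (SE 0.36, adjusted p = 0.000754), or 1.11 (SE 0.25, adjusted p = 0.000647) without male 2. Cox6a2 and Cox8b were listed at 0 in some E12.5 and E14.5 libraries, and were highest in E14.5 libraries, through which they passed the filter, so their differences are given as description with no test: from E12.5 to E14.5 in wild type, Cox6a2 had a log2 difference of 1.67 with male 2 and 0.96 without it, and Cox8b had 1.13 and no longer passed the filter without it. Female 1, at 3.12 FPKM, was next highest for Cox6a2. Cox4i2, a form of subunit 4, was at 11.9 FPKM in male 2 and 1.16 to 5.16 FPKM elsewhere.

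**Figure D4:**
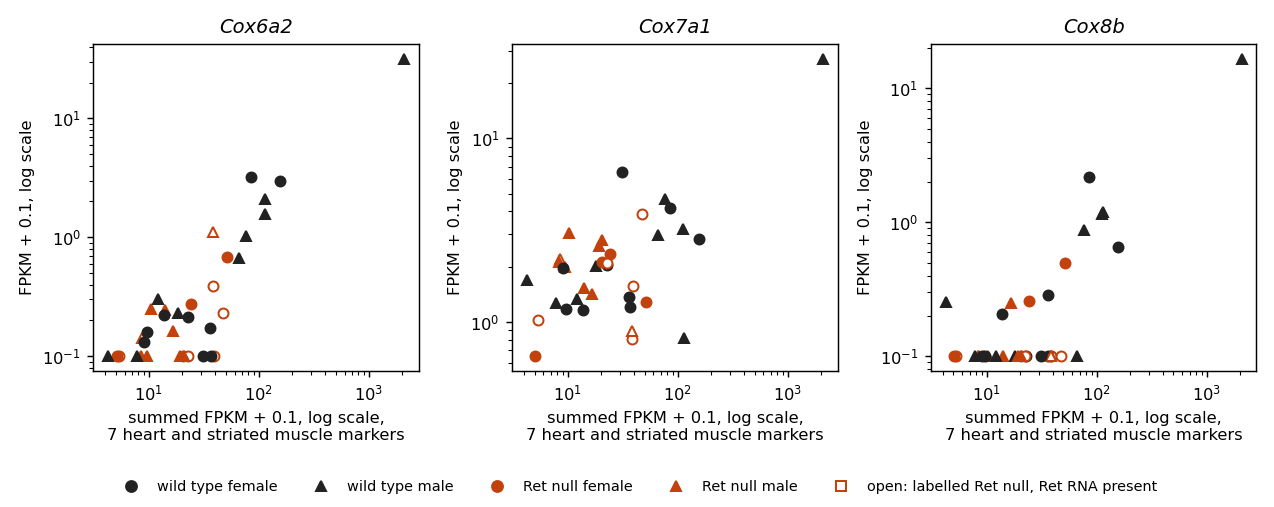
FPKM + 0.1 of Cox6a2, Cox7a1 and Cox8b against the summed FPKM + 0.1 of 7 heart and striated muscle markers, both on log axes, 1 point per library (36), with open symbols for libraries labelled Ret null that hold Ret RNA. Wild-type male 2 of E14.5 stands apart in every panel, at 2083 FPKM of markers.

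Among forms found outside muscle, shares shifted a little; they are given as a description, with no test. Atp5g1, Atp5g2 and Atp5g3 encode the same mature c subunit with different import sequences. Atp5g1 made up 11.0 to 11.5% of their summed FPKM in E12.5 wild type and 12.7 to 15.8% (median 14.7%) in E14.5 wild type, without overlap, and 12.4 to 13.9% in E14.5 libraries labelled Ret null, whose E12.5 median was 11.2%. Atp5g2 went from a median of 48.9% to 45.2% in wild type, with overlapping ranges, and Atp5g3 was at 39.7% at both stages. Singly, Atp5g1 rose in wild type (0.56, SE 0.11, adjusted p = 0.000164) and Atp5g3 rose by less (0.23, SE 0.08, adjusted p = 0.0118), while Atp5g2 had 0.10 (adjusted p = 0.298).

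Ndufa4l2 made up 0.324 to 2.10% of the NDUFA4 forms in E12.5 wild type and 3.10 to 13.5% (median 4.69%) in E14.5 wild type. In libraries labelled Ret null it made up 0.0886 to 4.84% (median 2.41%) at E12.5, above the E12.5 wild-type median of 0.721%, and 1.54 to 3.65% (median 1.82%) at E14.5. Cox6b2, known as the testis form of subunit 6b, was a small part of its pair, with medians of 6.60% in E12.5 wild type, 5.27% in E14.5 wild type, and 6.69% and 7.44% at these stages in libraries labelled Ret null. In every one of these groups the second gene of the pair, Ndufa4 or Cox6b1, held most of the RNA.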

How the data were processed

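The data are poly(A) RNA libraries of whole embryonic gut, 36 in 12 groups of stage, genotype label and sex, grouped by their titles. The deposited tables give, per the file headers, gene-level FPKM values and bounds of an interval that the authors computed for each; Picard, TopHat2, Cufflinks and Cuffdiff with mm10 are named in the submitters' processing notes, while versions, settings, strand handling and any scaling between libraries are not stated in the labels or headers. Gene starts in the files were read as counted from 0 and are printed counted from 1.

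Values were tested as log2(FPKM + 1) with limma 3.58.1 in R 4.3.3 (empirical Bayes with a mean-variance trend, two-sided, Benjamini-Hochberg over all genes with 1 FPKM or more in 3 or more samples), a call being an adjusted p under 0.05. Folds of low genes are understated on this scale. Genes without an OK status from the authors in every library of a fit were left out of that fit. Genotype was compared within a stage, averaged over the sexes; stages and the differences between their changes came from 1 fit of all 12 groups. Pairs of libraries whose spread was at most 1.1 times the counting noise, with at most 1% of genes beyond 3 SD, were averaged. The fit was tested on simulated data. Python 3.11.15 served for tables and counts, through pandas 2.3.3 and numpy 2.4.6, and matplotlib 3.10.9 for figures.

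The members, the gene lists and the cell type markers were chosen with earlier results of these data known. Named genes are up to 6 rising and 6 falling called members per comparison by size of change, the 2 highest and the lowest member of each role, the alternative forms, and up to 3 called genes each way of the other lists; further members are named where a count is small or where a result turns on them, after their values were seen. The shares of alternative forms are given without a test; ratios of these forms were first tested and the tests set aside after they had been seen. Alternatives were the pseudocount, filters, scalings, samples left out, single libraries left out and the replicate number as a block. The same replicate number does not pair libraries in the labels, and correlations of same-numbered libraries ran from -0.29 to 0.33. A few items are not reported here.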

Additional observations from a re-analysis of the deposited data

Results flagged for a closer look

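For 27 of 84 members the change from E12.5 to E14.5 differed between the genotype labels by limma's interaction test, in each case towards a lower level in libraries labelled Ret null. The named ones, as the difference in log2 change, were Ndufa4l2 (-2.27), Uqcr11 (-0.62), Cox8a (-0.62), Cox6b1 (-0.62), Cox6a1 (-0.60) and Ndufa6 (-0.59). The difference rests on E14.5 libraries in which wild-type male 1 and female 3 labelled Ret null stand apart from their groups, and 3 of the 6 libraries labelled Ret null at E14.5 hold Ret.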

How the results depend on the processing

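At E14.5, 23 members were called between genotype labels; the interval centre gave 39, and leaving out single libraries 3 to 45. For the genotype difference in the E12.5 to E14.5 change (27 called), leaving out libraries labelled Ret null that hold Ret gave 41, leaving out libraries with sex genes against their label 13, scaling to one total 16, and single libraries 12 to 48. From E12.5 to E14.5 in libraries labelled Ret null (12 called), quantile normalization gave 21, the median shift 25, leaving out those that hold Ret 25, the interval centre 19, and single libraries 7 to 28. In wild type over the same interval (36 called) no alternative moved the count by more than 1.5 times, single libraries giving 29 to 53. The balance did move, from 35 rising and 1 falling to 23 and 10 when scaled to one total, and to 26 and 5 with the median shift.

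At E10.5 (0 called), counting every library gave 12 (2 higher, 10 lower), and single libraries 0 to 2, the 2 without female 3 labelled Ret null. From E10.5 to E12.5, counting every library gave 5 in wild type in place of 0. In libraries labelled Ret null (3 called) it gave 11, no filter on low values 1, quantile normalization 7 (6 higher, 1 lower), the median shift 1, leaving out those that hold Ret 0, leaving out the E10.5 females 0, leaving out sex-gene mismatches 1, and single libraries 0 to 3. Leaving out the E10.5 females labelled Ret null, all of which hold Ret, leaves males only in comparisons with E10.5. The causes were not tested.

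The replicate number as a block, which the labels do not make a pairing, gave 1 call at E10.5 in place of 0 and 10 in place of 3 from E10.5 to E12.5 in libraries labelled Ret null. With the replicate block the counts were 16 between labels at E14.5, 42 and 13 for E14.5 against E12.5 in wild type and in libraries labelled Ret null, and 32 for the genotype difference in that change; it moved no other count by more than 1.5 times.

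None of the genes named by size of change was reversed in the comparison that named it; genes named for other reasons were not followed through the alternatives. At E14.5, Atp5k and Uqcrq each lost their call in 11 of 22 alternatives, Uqcr11 in 3, and Cox8a and Cox6b1 in 2; Ndufa4l2 kept it in all 22 there but lost it in 24 of 34 for the difference in change. From E12.5 to E14.5 in libraries labelled Ret null, Cox6a1 lost its call in 11 of 22 and Ndufs6 in 10, and from E10.5 to E12.5 there Cox6c lost it in 15, Ndufv2 in 13 and Atp5c1 in 8. Cox6a2 and Cox8b are left out of these counts, because they passed the filter only through libraries in which they were high. Depth, lowest in E14.5 wild type, limits the genes near 0, Cox6a2 and Cox8b.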
